A study of Mus musculus with 4 samples.

Results

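The cells described here are capillary-type endothelial cells of mouse subcutaneous adipose tissue (SAT) that carry RNA of Gpihbp1. They were chosen cell by cell from unique molecular identifier (UMI) counts, where 1 UMI stands for 1 captured RNA molecule. A cell was a member when at least 200 genes were detected in it, it held 2 or more UMIs of Gpihbp1 and 1 or more UMIs summed over the endothelial genes Pecam1, Cdh5, Egfl7 and Cldn5, and Ptprc, Cd79a, Cd3e, Dcn and Myh11, which mark leukocytes, B cells, T cells, fibroblasts and smooth muscle, were at 0. This rule took 266 of the 4738 SAT cells that passed the gene minimum, and of 8986 such cells in all 4 libraries of the study. Of the members, 177 came from the control library and 89 from the D-CAN library. The rule read the same counts that are described below, so the values of its 10 genes describe the choice and support nothing.

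The study profiled host SAT and subcutaneous MycCap tumors by droplet single-cell RNA sequencing (10x Genomics 3′ chemistry). The mice are labelled VFB, and the paper names the strain FVB. They were fed chow and had been grafted with MycCaP cells, a prostate cancer line from HiMyc mice, so the control animals carried a graft too. The D-CAN group received D-CAN, a peptide that targets adipose stromal cells, and the control group is labelled PBS. Each combination of tissue and treatment is 1 library. The age of the mice and the number pooled into a library are not given in the sources used here. With 1 library a group there is no replicate, no test between groups was possible, and each interval below (95%, exact Poisson for counts and Clopper-Pearson for shares) covers counting error only. The fraction was labelled stromal/vascular, and dead cells and red blood cells had been removed before capture, so adipocytes are not part of it.

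Endothelial cells line the vessel wall. In fat, muscle and heart, those of capillaries display GPIHBP1, a membrane-anchored protein that binds lipoprotein lipase made by the surrounding parenchymal cells and carries it to the lumen, where the enzyme splits the triglycerides of passing lipoproteins. Fatty acids then enter the endothelial cell with the help of CD36 and are held by fatty acid-binding proteins such as FABP4 on their way to adipocytes. Arterial and venous endothelium express other sets of genes, and venules carry the adhesion molecules through which leukocytes leave the blood.

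The gene Gpihbp1 lies on chr15:75596628-75599481 (plus strand, GRCm38). Cells with 1 or more of its UMIs numbered 407 in control and 146 in D-CAN SAT, and 239 and 115 had 2 or more. Of these, 234 and 115 met the endothelial condition. The requirement that other markers be 0 then removed cells in the control library with UMIs of Myh11 (17 cells), Dcn (16), Ptprc (15), Cd79a (12) and Cd3e (3), and in the D-CAN library with UMIs of Dcn (13), Ptprc (10), Myh11 (3), Cd3e (2) and Cd79a (1), some cells failing on more than 1 gene. The members held 71.8% of all Gpihbp1 UMIs of the control library and 69.5% of those of the D-CAN library. Among members, Gpihbp1 had a median of 4 UMIs a cell in control (highest 103) and 10 in D-CAN SAT (highest 82). Exactly 2 UMIs were found in 47 control and 10 D-CAN members, and 10 or more in 34 and 45.

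Fabp4 and the pan-endothelial list were then read outside the rule, although a choice of endothelial cells in part fixes their result. Fabp4 was detected in all 177 control and all 89 D-CAN members. All 16 pan-endothelial genes outside the rule, among them the receptors Kdr, Flt1 and Tie1 and the membrane protein Emcn, were more than 2-fold above all other SAT cells in both libraries. Against other SAT endothelium, described below, only 1 of 15 compared was past 2-fold higher (Kdr). The pan-endothelial list thus does not set the members apart within endothelium. Of the genes inside the rule, Pecam1 was detected in 118 control and 78 D-CAN members, Cdh5 in 141 and 85, Egfl7 in 142 and 84, and Cldn5 in 135 and 77. In the control library 19 members rested on 1 endothelial UMI, and none did in the D-CAN library.

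The 2 libraries differed in depth, and this touches every share of cells below. Control members had a median of 1859 UMIs (quartiles 962 and 3948) and D-CAN members 4339 (quartiles 2439 and 8830), with 980 and 1830 genes detected at the median. Summed over members the depth was nearly equal, 559645 UMIs in control and 551348 in D-CAN SAT, so the counting error of levels was alike. The D-CAN sum came from fewer cells (89 against 177), and the spread between cells is not in the intervals. The median mitochondrial share was 4.78% in control and 5.68% in D-CAN members. The SAT libraries shared 2 cell barcodes, none of them a member. Levels are in CPM, the UMIs of a gene in a gate per 1000000 UMIs of that gate. A 3′ library gives 1 tag a molecule, so CPM of different genes were compared without division by length.

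**Figure D1:**
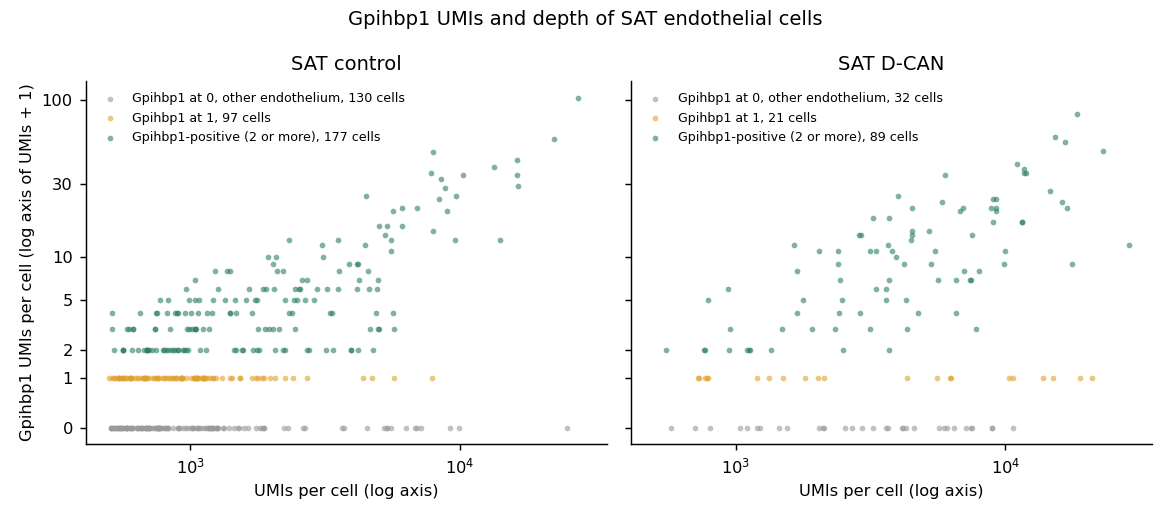
Gpihbp1 UMIs (vertical axis, log scale of UMIs + 1) against total UMIs (horizontal axis, log scale) of single SAT cells, with control and D-CAN cells shown apart. Members start at 2 Gpihbp1 UMIs, and the D-CAN members sit farther to the right, with a median of 4339 against 1859 total UMIs.

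Cells just inside and just outside the threshold were set side by side. Endothelial cells with exactly 1 Gpihbp1 UMI numbered 97 in control and 21 in D-CAN SAT, with median depths of 920 and 2131 UMIs. In control SAT, Fabp4 stood at 18233 CPM in endothelial cells with 0 Gpihbp1 UMIs, 24495 with 1, 27279 with 2, 36913 with 3 to 5 and 44847 with 6 or more. In D-CAN SAT the same steps gave 11937, 15849, 33864, 29453 and 43813 CPM. The rise was thus stepwise in control SAT, and in D-CAN SAT it was broken between 2 and 3 to 5 UMIs, where the step at 2 held only 10 cells. Car4 had 79.9, 140, 57.6, 347 and 458 CPM over these steps in control and 15.8, 23.8, 215, 282 and 392 in D-CAN SAT. In control SAT the cells at 1 UMI were not below those at 2 for Car4, nor for Cd36 (2601 and 2388 CPM) and Rbp7 (2181 and 2115 CPM). For Vwf, a clotting factor stored in endothelium, the control values were 395, 105, 43.2, 26.7 and 29.1 CPM. The D-CAN values of Vwf were 584, 222, 0, 282 and 14.5 CPM, where 15 of the 22 Vwf UMIs of all D-CAN members came from 1 cell. Median depth over the same steps was 804.5, 920, 936, 1172 and 4240 UMIs in control and 3421, 2131, 1110.5, 2476 and 6283.5 in D-CAN SAT, so it rose at each step in control but not in D-CAN SAT, and its part was not tested.

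Set against all other cells of the same library, the members were higher for genes of most endothelial lists, lipid and capillary genes among them. A gene was called when its CPM ratio, after 0.5 UMI was added on each side, was past 2-fold in the same direction in both libraries, among genes with at least 20 UMIs. By this rule 1792 of 11068 genes were higher (16.2%) and 1463 lower (13.2%), and the median log2 ratio of all genes was 0.19 in control and 0.26 in D-CAN SAT. Of the lipid uptake and handling list 13 of 18 genes were higher and 2 lower, and of the capillary list 14 of 14 were higher. This was not particular to those lists. Higher too were 16 of 16 pan-endothelial, 11 of 13 caveolae and transport, 9 of 12 tip and angiogenic and 10 of 14 arterial genes. So were 12 of 14 receptor genes of the VEGF, TIE, Notch and TGF-beta families, but only 2 of 11 venous genes. All 9 fibroblast, 6 B cell, 6 T cell and 7 myeloid genes that passed the minimum were lower. The gates themselves removed cells with marker genes of those other types, so these last counts partly restate the rule.

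The 15 genes that stood highest above other SAT cells, ranked by the smaller of the log2 ratios of the libraries, were led by Car4 (4.48 on the log2 scale), a carbonic anhydrase anchored on capillary membranes. Bmp6 (4.36), a secreted BMP ligand, Ablim3 (4.32), an actin-binding protein, and Clic5 (4.31), a chloride intracellular channel protein, followed, with Tmem182 at 4.26. Next came Btnl9 (4.15), a butyrophilin-like membrane protein, Timp4 (4.15), an inhibitor of matrix metalloproteinases, and Aqp7 (4.08), a channel for water and glycerol. The remaining members of this group were Bcl6b (4.07), a transcriptional repressor of endothelium, Hspa12b (4.05), Slc26a10 (3.96), Mgll (3.94), which splits monoglycerides to glycerol and fatty acid, Kdr (3.94), the main receptor of VEGF-A, Tcim (3.94) and Kank3 (3.92). The 5 lowest were leukocyte genes. Dock2, Arhgap15 and Ctss (a lysosomal protease) were at 0 in members of both libraries, a count of 0 allowing up to 5.36 CPM in control and 5.44 CPM in D-CAN members, and S100a8 and S100a9, calcium-binding proteins of neutrophils, gave 1 or 2 UMIs a library.

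The closer comparison was with other endothelium of the same SAT library, that is, cells with 2 or more UMIs summed over the 4 endothelial genes, no Gpihbp1 UMI and the same 5 genes at 0. There were 130 such cells in control (median 804.5 UMIs, 212861 in all) and 32 in D-CAN SAT (median 3421, 126667 in all). Here 189 of 4608 genes were higher in members in both libraries (4.1%) and 130 lower (2.82%). The median log2 ratio of all genes was 0.04 in control and 0.13 in D-CAN SAT, with 2415 and 2615 of the 4608 above 0. For the lists below, the median is over the smaller of each gene's 2 library ratios, set to 0 where their signs differ. It is thus not the same measure as the medians of all genes. When gates were scaled by the median ratio of genes with 50 or more UMIs in both gates, in place of the total, all log2 ratios moved up by 0.13 and 0.41, and the split became 299 higher and 72 lower (80.6% higher against 59.2% by totals). The members were picked for Gpihbp1 within endothelium, so genes that travel with Gpihbp1 had to stand higher, and the values below are descriptions.

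Genes of lipid uptake and handling made the largest group of higher genes. Of 19 genes outside the rule 13 passed the minimum, 10 were past 2-fold higher (Lpl, Cd36, Fabp4, Fabp5, Pparg, Tcf15, Angptl4, Rbp7, Plin2 and Acsl1) and Slc27a3 was lower, with a median log2 ratio of 1.17. Fabp4 (chr3:10204088-10208576, minus strand) was the most abundant of them, at 41074 CPM (40545 to 41609) in control and 42177 (41636 to 42722) in D-CAN members, against 18233 and 11937 in other endothelium. Its level in the leukocyte gate, cells with Ptprc and none of the other marker genes, was 93.9 and 42.5 CPM. A Fabp4 UMI was present in 14.5% of control and 14.1% of D-CAN leukocytes, whose median depths were 2304.5 and 3028 UMIs. Whether these UMIs were free RNA or the cells' own was not tested. Cd36, the fatty acid translocase (chr5:17781690-17888801, minus strand), stood at 4108 and 4222 CPM in members against 1856 and 900 in other endothelium. Fabp5, another fatty acid-binding protein, had 3100 and 2068 CPM against 1001 and 671. Rbp7, a retinol-binding protein of adipose endothelium, had 2777 and 3419 CPM against 996 and 418. For these 4 genes the members of both libraries were above the other endothelium of both libraries.

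Lpl, which encodes lipoprotein lipase itself, is known as a product of adipocytes and their precursors. Members held 602 Lpl UMIs in 117 of 177 control cells (1076 CPM, 991 to 1165) and 610 in 76 of 89 D-CAN cells (1106 CPM, 1020 to 1198). Other endothelium held 35 UMIs in control (164 CPM) and 5 in D-CAN SAT (39.5 CPM). The fibroblast gate (2 or more Dcn UMIs, other markers at 0) had 860 CPM in control and 2111 CPM in D-CAN SAT, and leukocytes 7.03 and 8.99. Members thus stood above fibroblasts for Lpl in control SAT and below them in D-CAN SAT. Mgll, which completes the breakdown of stored fat, stood at 3064 and 3174 CPM in members against 973 and 537 in other endothelium. Aqp7, the glycerol channel, had 332 and 307 CPM against 51.7 and 7.89, and Car3, a cytosolic carbonic anhydrase abundant in fat, had 341 and 472 against 75.2 and 86.8. Of 10 adipocyte genes 3 passed the minimum and 1 was past 2-fold higher (Cfd, a secreted complement factor). The adipocyte list summed to 404 CPM in control and 377 in D-CAN members, 230 and 197 in other endothelium and 39.0 and 24.2 in leukocytes. Pnpla2, a triglyceride lipase that many cells use, was its most abundant gene in members, at 130 and 127 CPM. Adipoq, the defining adipocyte hormone, gave 7 and 5 UMIs and Lep none, and the part of adipocyte RNA in these results was not tested.

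Cell by cell the lipid genes were spread within the members. The summed CPM of the lipid list per cell, Gpihbp1 included, had a median of 51441 in control members, with a 10th percentile of 21814 and a 90th of 74071. In D-CAN members the median was 58449 (23871 and 82102). Other endothelium had medians of 24523 and 13265. The ranges overlapped, since the 90th percentile of control other endothelium, 51364, lay next to the member median. The capillary list behaved alike, with medians of 11212 CPM a cell in control and 12990 in D-CAN members against 6209 and 3272 in other endothelium. The venous list was at 0 in 74 of 177 control and 15 of 89 D-CAN members and in 53 of 130 and 9 of 32 cells of other endothelium, so cells at 0 were not more frequent in the members of D-CAN SAT. Its median was 368 and 715 CPM against 1085 and 1574 in other endothelium. With Gpihbp1 in the lipid list, no member could be at 0 for it.

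Capillary genes formed the next group. Of 15 in the list 14 passed the minimum, all 14 had ratios above 0, and 7 were past 2-fold higher in both libraries (Car4, Rgcc, Btnl9, Cd300lg, Kdr, Timp4 and Tcf15), with a median log2 ratio of 1.16. Car4 (chr11:84957786-84966044, plus strand) had 386 CPM in control and 377 in D-CAN members against 79.9 and 15.8 in other endothelium. Btnl9 stood at 658 and 697 against 150 and 55.3 CPM. Cd300lg, a mucin-like receptor of capillary endothelium, had 1160 and 1237 against 446 and 300, and Kdr 1251 and 1224 against 479 and 126. Rgcc, a cell cycle regulator expressed in capillaries, had 824 and 1250 CPM against 254 and 15.8. Timp4 had 570 and 521 against 65.8 and 174, where the 22 Timp4 UMIs of D-CAN other endothelium came from 2 cells.

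**Figure D2:**
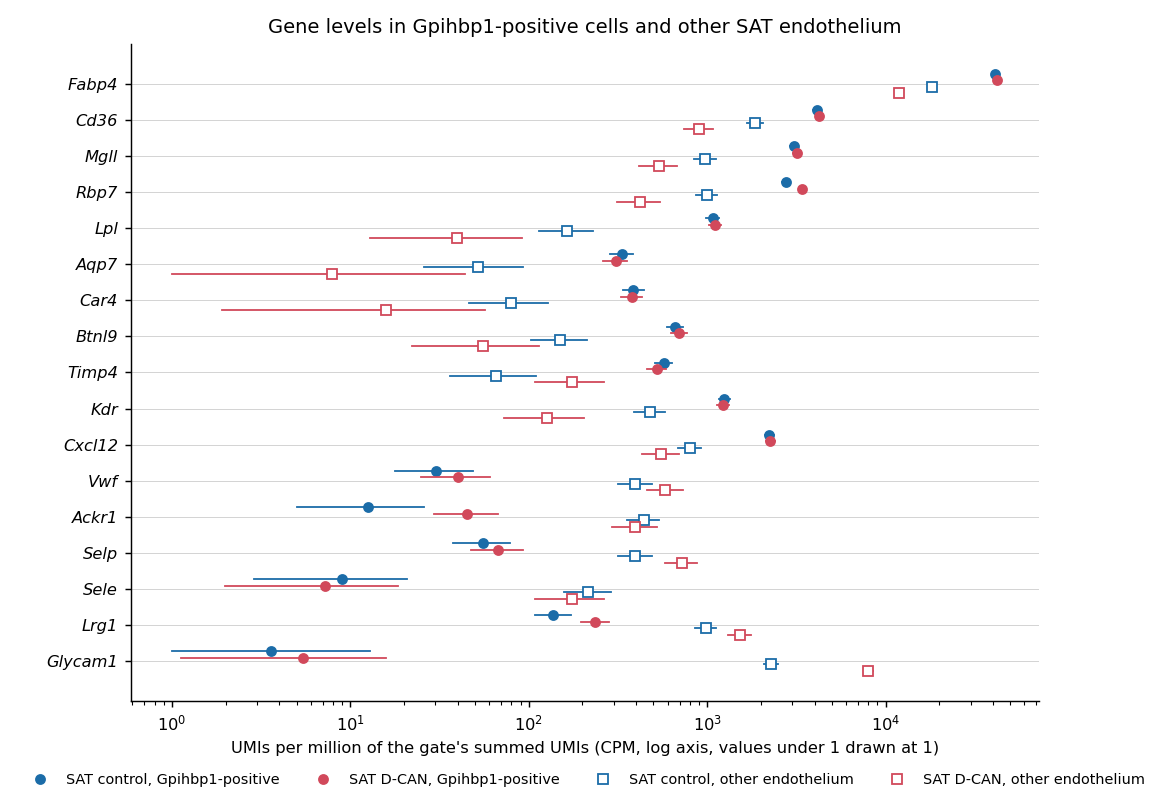
Levels of lipid, capillary and venous genes in CPM (log scale) in members and other endothelium of control and D-CAN SAT. Bars are exact Poisson intervals for counting error. Fabp4, Lpl and Car4 stand higher in members of both libraries, and Vwf, Ackr1 and Selp stand lower.

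Venous genes ran the other way. Of 11 that passed the minimum 9 were past 2-fold lower in members (Vwf, Ackr1, Selp, Sele, Vcam1, Nr2f2, Lrg1, Icam1 and Il6st), none was higher, and the median log2 ratio was -2.69. Vwf had 30.4 CPM in control and 39.9 in D-CAN members against 395 and 584 in other endothelium. Ackr1, a chemokine-binding receptor of venules, had 12.5 and 45.3 against 442 and 395 CPM. Selp, P-selectin, had 55.4 and 67.1 against 395 and 718, and Sele, E-selectin, 8.93 and 7.26 against 216 and 174. Lrg1, a secreted glycoprotein that acts on TGF-beta signalling, had 138 and 236 CPM against 982 and 1524. Nr2f2, the transcription factor of venous identity, was nearer, with 91.1 and 136 CPM against 287 and 316. Glycam1, a mucin ligand of L-selectin made by high endothelial venules, gave 2 and 3 UMIs in members against 488 and 1016 in other endothelium, where they came from 7 cells in control and 3 in D-CAN SAT. The level of Glycam1 in other endothelium was thus that of few cells.

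The arterial list was mixed. Of 14 genes that passed 5 were past 2-fold lower in members (Fbln5, Mgp, Fbln2, Jag1 and Clu), 1 was higher (Cxcl12), and the median log2 ratio was -0.47. Clu, a secreted chaperone, had 69.7 and 56.2 CPM against 1085 and 1500, and Mgp, which inhibits calcification, gave 0 UMIs in control and 1 in D-CAN members against 44 and 160. Efnb2 and Hey1, arterial genes of the Eph and Notch pathways, were within 2-fold, at 148 and 163 CPM against 179 and 118 for Efnb2 and 57.2 and 61.7 against 56.4 and 78.9 for Hey1. Cxcl12 encodes a chemokine that holds and recruits cells with its receptor CXCR4. It stood at 2228 CPM (2106 to 2355) in 147 of 177 control members and 2260 CPM (2136 to 2389) in 78 of 89 D-CAN members. Other endothelium had 799 and 553 CPM, and the fibroblast gate 926 and 946. In CPM, Cxcl12 was therefore higher in members than in gated fibroblasts of the same library.

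Among the other lists, caveolae and transport had 4 of 12 genes higher (Cav1, Cav2, Aqp7 and Rgcc) and 1 lower (Slc2a1), with a median log2 ratio of 0.63. Cav1 and Cav2 build the membrane pits that are dense in capillary endothelium. Of 15 pan-endothelial genes 1 was higher (Kdr), of 6 tip and angiogenic genes 2 (Col4a1 and Col4a2, chains of basement membrane collagen), and of 13 receptor genes of the VEGF, TIE, Notch and TGF-beta families 2 (Kdr and Nrp1). Of 12 genes of vessel tone and coagulation 5 were lower (Edn1, Ace, Ptgs1, Procr and Vwf). Of 15 genes of antigen presentation and interferon 1 was higher and 2 lower, Cd74 and H2-Ab1 of the class II pathway. The B cell list summed to less in members too, 170 and 23.6 CPM against 310 and 387 in other endothelium. The myeloid list summed to 46.5 and 29.0 against 117 and 308. Of these lists 1 B cell gene passed the minimum and was within 2-fold, and no myeloid or T cell gene passed. T cell genes went both ways in control SAT, such as Cd3g (log2 ratio 2.69) and Trbc2 (-0.78), on few UMIs. In D-CAN other endothelium 33 Tyrobp UMIs of the myeloid list came from 1 cell, and the part of leukocyte RNA was not tested. The higher gene of antigen presentation and interferon was Cxcl9, an interferon-induced chemokine, at 263 and 227 CPM in members against 42.3 and 15.8. Abcb1b, a drug efflux pump, ranked first among the higher genes outside the rule, at 127 and 152 CPM in members and a log2 ratio of 2.96 in the library where it was smaller. Others among the 12 highest were Clic5 (2.16 on the same scale), Trp53i11 (2.15), Ercc1 (2.12), a DNA repair nuclease subunit, Mcf2l (2.09), a guanine nucleotide exchange factor, and Ablim3 (1.99). Among the 12 lowest, outside the lists already given, were Timp2 (-3.09), a metalloproteinase inhibitor, Cd9 (-2.43), a tetraspanin, and Csf2rb2 (-2.08), a cytokine receptor chain. Tagln, an actin-binding protein of smooth muscle, was lower too (-3.02). In other endothelium Tagln stood at 644 CPM in control and 505 in D-CAN SAT, and the mural list summed to 1034 and 513 CPM there against 188 and 203 in members. Nearly all of the 513 CPM was thus Tagln itself. Rgs5, the other of 2 mural genes that passed the minimum, had log2 ratios of -1.20 in control and 1.91 in D-CAN SAT. The part of mural RNA in the contrast was not tested. Of the high endothelial venule list 2 of 3 genes were lower (Glycam1 and Sele), none of the 8 lymphatic genes passed the minimum, and 1 of 17 immediate early and heat shock genes was lower (Ier3).

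**Figure D3:**
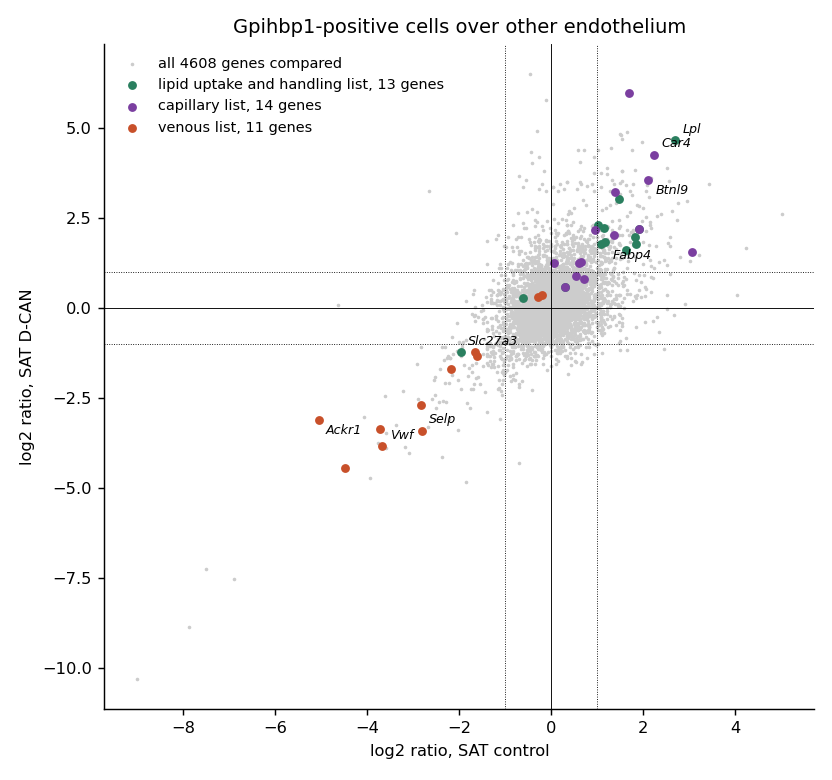
Log2 ratio of members over other endothelium for each gene, D-CAN library (vertical) against control library (horizontal), with named genes marked. The libraries share no cells, but the same rule chose members in both, and dotted lines mark 2-fold. Most lipid and capillary genes lie at upper right, and 9 of 11 venous genes at lower left.

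Promoter sequence is shown for 4 of these genes because they stand at both ends of the contrast, Car4 and Timp4 high in members and Glycam1 and Sele low. Each line is the 250 bases before the start of the gene, 5′ to 3′ on the strand of the gene, from RefSeq on GRCm38.p6. The windows are chr11:84957504-84957753 (plus strand) for Car4, chr6:115252206-115252455 (minus) for Timp4, chr15:103565082-103565331 (minus) for Glycam1 and chr1:164047984-164048233 (plus) for Sele. Capitals mark matches on either strand. The ETS core was searched as AGGAAG. The site of GATA factors was searched as AGATAA. The half-site of nuclear receptors was searched as AGGTCA. Matches of different motifs can share letters.
Car4: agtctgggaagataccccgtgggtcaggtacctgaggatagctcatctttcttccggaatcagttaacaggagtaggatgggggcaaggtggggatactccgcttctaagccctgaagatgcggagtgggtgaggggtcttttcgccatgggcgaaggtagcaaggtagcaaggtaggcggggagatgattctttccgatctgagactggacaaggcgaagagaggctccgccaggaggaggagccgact
Timp4: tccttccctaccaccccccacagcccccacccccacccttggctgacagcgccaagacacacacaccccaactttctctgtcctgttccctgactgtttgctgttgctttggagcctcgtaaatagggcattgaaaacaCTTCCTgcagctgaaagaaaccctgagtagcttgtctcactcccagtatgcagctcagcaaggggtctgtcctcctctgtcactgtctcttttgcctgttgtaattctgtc
Glycam1: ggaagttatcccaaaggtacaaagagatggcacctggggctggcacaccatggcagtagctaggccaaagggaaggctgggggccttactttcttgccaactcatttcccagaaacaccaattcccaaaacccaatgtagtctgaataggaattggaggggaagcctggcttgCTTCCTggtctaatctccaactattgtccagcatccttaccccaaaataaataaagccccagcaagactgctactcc
Sele: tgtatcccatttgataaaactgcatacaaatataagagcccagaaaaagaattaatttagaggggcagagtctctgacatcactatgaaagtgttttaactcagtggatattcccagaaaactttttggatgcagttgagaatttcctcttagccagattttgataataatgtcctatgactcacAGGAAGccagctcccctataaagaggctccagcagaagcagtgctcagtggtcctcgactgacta
Timp4, Glycam1 and Sele each held 1 match to AGGAAG, and Car4 none to any of the 3 motifs. AGGAAG was present in 29.5% of 32851 windows of the same length, AGATAA in 9.99% and AGGTCA in 14.0%. A match describes the letters only.

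The treatment comparison asks what D-CAN SAT members look like beside control members. In members, 169 of 6447 genes with at least 20 UMIs were past 2-fold higher in D-CAN (2.62%) and 115 lower (1.78%), around a median log2 ratio of 0.02. Of all these genes 3394 had ratios above 0 and 3053 below. With each cell thinned to 500 UMIs, where fewer genes reached the minimum, there were 36 higher and 50 lower, of which 1 and 4 were among the calls at full depth. These are differences between 1 library and another, and treatment cannot be told apart from the library, its depth or its mice. Most lists had few genes past 2-fold between treatments. Of 14 capillary genes none was past 2-fold in either direction (median 0.08), of 12 caveolae and transport genes none (median near 0), of 13 arterial genes none (0.02) and of 14 receptor genes none (0.18). Of 14 lipid genes 1 was higher (Angptl4, median 0.11), and of 16 pan-endothelial genes 1 (Sox18, median near 0). Of 10 venous genes 1 was higher (Ackr1, from 4 D-CAN cells), 8 of the 10 had ratios above 0 and the median was 0.42. Of 12 tip and angiogenic genes 1 was higher (Igfbp3, median -0.10) and of 12 genes of vessel tone and coagulation 1 (Ace, median 0.24). Of 19 genes of antigen presentation and interferon 3 were lower (Ifit1, Cd74 and H2-Aa) and none higher (median -0.05).

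Angptl4 encodes a secreted inhibitor of lipoprotein lipase. It gave 119 UMIs in 67 of 177 control members (213 CPM, 176 to 254) and 267 UMIs in 67 of 89 D-CAN members (484 CPM, 428 to 546), a log2 ratio of 1.18 (0.87 to 1.51). In other endothelium it stood at 103 and 94.7 CPM, a log2 ratio of -0.10. When cells were thinned to 1000 UMIs, Angptl4 was detected in 19.7% of control and 36.6% of D-CAN members. The Angptl4 values of the members were thus apart by more than counting error, with no replicate to say how libraries vary. Sox18, a transcription factor of endothelium, had 200 CPM (165 to 241) in control and 404 CPM (353 to 461) in D-CAN members, a log2 ratio of 1.01 (0.68 to 1.36). In other endothelium the Sox18 ratio was 1.28.

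Several of the largest differences rested on few UMIs. Of the 12 highest genes Pde12, a mitochondrial exonuclease that trims poly(A) tails, led with 13 UMIs in 10 control members and 50 in 26 D-CAN members, a log2 ratio of 1.92 (1.06 to 2.97). Hbb-bs, a hemoglobin chain, was next with 428 and 1374 UMIs, but 1295 of the latter were in 1 cell, and the log2 ratio was -1.92 with the member richest in hemoglobin UMIs left out of each library. Of the 65 D-CAN UMIs of Itm2a 29 were in 1 cell. The others were B4galt4, Slco2a1, Acer2, Hdac5, Col15a1, Ints3, Larp1, Cenpx and Col13a1, with log2 ratios of 1.61 down to 1.26. When every cell was thinned to 500 UMIs, Slco2a1, Acer2 and Col15a1 turned to the other direction. At the low end stood Igkc, the constant region of the antibody kappa chain, with 67 UMIs in 35 control members and 6 in 6 D-CAN members, a log2 ratio of -3.35 (-4.96 to -2.26), which became 0.16 when no gene was required to be 0. Ccl5, a T cell chemokine, had 49 UMIs in 12 control cells and 5 in 3 D-CAN cells, and Cd74 had 59 in 34 and 10 in 5. Selenos, Btbd1, Fam181b, Ptpn18, Stard4, Fst, Slc39a1, Cdk9 and Txnl1 followed, the last 2 at -0.99 and -0.97 and so within 2-fold, and Btbd1, Fam181b and Cdk9 changed direction on thinning.

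Igkc, Ccl5 and Cd74 are leukocyte genes. The B cell list summed to 95 UMIs (170 CPM) in control and 13 (23.6 CPM) in D-CAN members, of which 67 and 6 were Igkc itself, and Cd79a was at 0. The T cell list summed to 59.0 and 14.5 CPM with Cd3e at 0, and the myeloid list to 46.5 and 29.0 with Lyz2 leading and Ptprc, Csf1r and Adgre1 at 0. In the leukocyte gate Igkc stood at 3242 CPM in control and 4699 in D-CAN SAT, the opposite order. Of the 6 B cell genes compared in that gate, Igkc was the 1 higher in D-CAN SAT. The other 5 were lower, and the median log2 ratio of the 6 was -0.27. Cells that held UMIs of 2 or more genes of a fibroblast, mural, blood or leukocyte list made up 44 of 177 control members (24.9%) and 14 of 89 D-CAN members (15.7%). No doublet caller was run, and the part of mixed droplets or free RNA in these genes was not tested.

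Other cell types left traces of different size. The fibroblast list summed to 155 and 105 CPM, led by Gsn, with Dcn, Pdgfra and Dpp4 at 0. The mural list summed to 188 and 203 CPM with Myh11 and Cnn1 at 0, although its member Pdgfrb, a receptor of pericytes, gave 4 UMIs in control and 27 in D-CAN members, all 27 in 2 cells. The epithelial and tumor list gave 0 UMIs in control and 1 in D-CAN members. The lymphatic list summed to 14 and 29 UMIs, led by Flt4 (13 and 17 UMIs), which blood endothelium can carry too, with Lyve1, Pdpn, Mmrn1, Reln and Ccl21a at 0. Nts, which encodes neurotensin, gave 1 UMI in control and 11 in D-CAN members, 10 of them in 1 cell, and Prox1 gave 0 and 1. The red cell and platelet list summed to 1746 and 4277 CPM, the D-CAN value holding the 1 cell named above.

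Immediate early and heat shock genes, which many stimuli switch on within minutes, shifted together without passing 2-fold. All 17 were higher in D-CAN members, with log2 ratios between 0.30 and 0.88 and a median of 0.70. For all genes the median was 0.02, and 3394 of 6447 were higher. Jun, a subunit of the AP-1 transcription factor, had 1424 CPM (1327 to 1527) in control and 2423 (2295 to 2557) in D-CAN members, and Fos, its partner, 833 (759 to 912) and 1371 (1275 to 1473). Egr1 had 497 and 918 CPM. The direction was not particular to the members. In other endothelium 13 of the 17 were higher in D-CAN (median 0.47), in the fibroblast gate 15 (median 0.82), in leukocytes 11 (median 0.10) and in the mural gate 6 (median -0.10). The medians of all genes in these gates were -0.07, -0.01, -0.02 and 0.08. The median mitochondrial share was also higher in D-CAN members (5.68% against 4.78%), and its part in this result was not tested.

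The summed level of the proliferation list was lower in D-CAN than in control members. It summed to 268 UMIs in control (479 CPM, 423 to 540) and 113 in D-CAN members (205 CPM, 169 to 246), against 892 and 907 CPM in leukocytes, 324 and 142 in other endothelium and 701 and 39.2 in the fibroblast gate. Of 12 genes 4 passed the minimum, and of these 2 were past 2-fold lower (Stmn1 and Cenpf) and 2 within 2-fold, Hmgb2 below 0 and Tyms above. Cenpf, a kinetochore protein of dividing cells, gave 22 UMIs in 10 control members and 0 in D-CAN members, which allows up to 5.44 CPM. Mki67 gave 5 and 0 UMIs. At an equal depth of 1000 UMIs, 2 or more genes of the list were detected in 12 of 127 control members (9.45%, 4.98 to 15.9) and 3 of 82 D-CAN members (3.66%, 0.761 to 10.3), intervals that overlap. The same measure took 52 of 866 and 29 of 892 leukocytes and 2 of 53 and 0 of 29 cells of other endothelium. Cenpf was above all other SAT cells in control members, at 39.3 CPM.

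**Figure D4:**
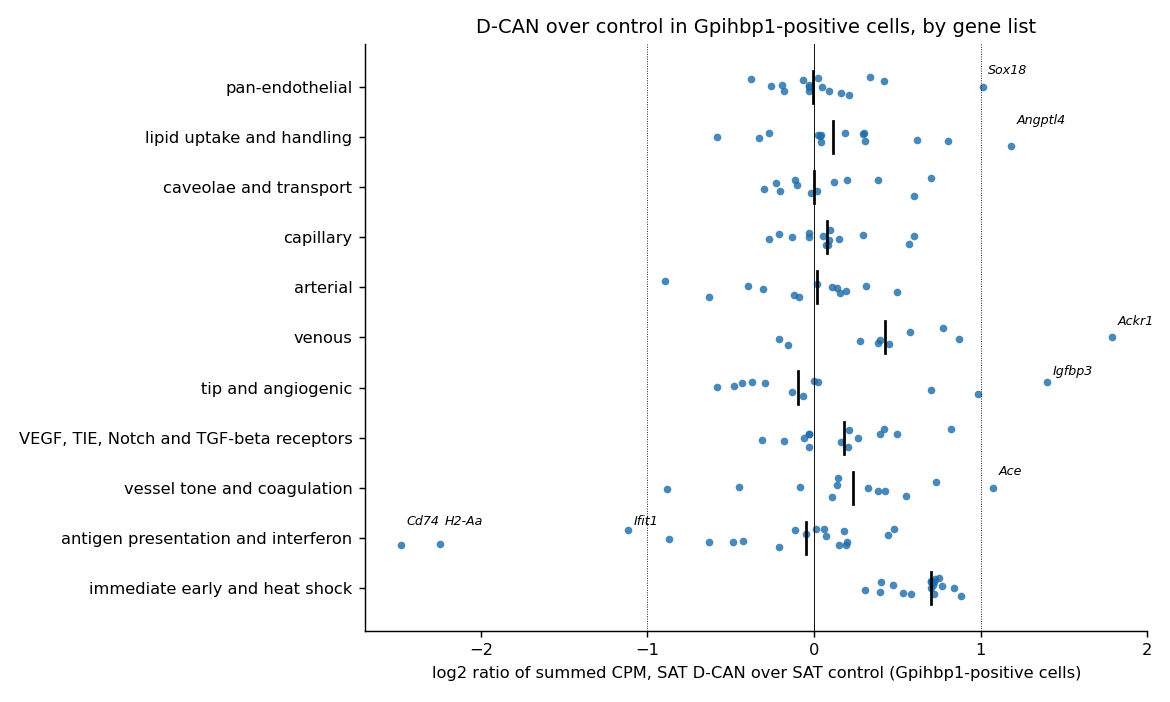
Log2 ratio of D-CAN over control in members for each gene of the lists that passed the minimum, with the median of each list marked and dotted lines at 2-fold. Capillary, lipid and arterial genes lie around 0, and the 17 immediate early and heat shock genes lie between 0.30 and 0.88.

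How common the members were depended on the denominator and on depth. Of all SAT cells that passed the gene minimum they were 6.23% in control (5.37 to 7.18) and 4.69% in D-CAN SAT (3.78 to 5.74), a difference of -1.54 percentage points (-2.85 to -0.180). At an equal depth of 1000 UMIs a cell, reached by 1928 control and 1701 D-CAN cells, the shares were 4.93% (95 cells) and 3.88% (66 cells), a difference of -1.05 points (-2.42 to 0.336). The leukocyte gate took 35.6% of control and 52.3% of D-CAN cells, and 32.3% and 34.9% when thinned. Among cells with Ptprc, Cd79a and Cd3e at 0 the members were 14.8% in control and 21.5% in D-CAN SAT at full depth, and 11.1% and 9.66% when thinned. Among gated endothelial cells they were 177 of 404 (43.8%) and 89 of 142 (62.7%), a difference of 18.9 points (9.0 to 28.2), and thinned 39.9% and 45.8%, a difference of 5.92 points (-4.66 to 16.5). An equal depth of 500 UMIs kept all cells and gave 2.75% and 1.69% of all cells, a difference of -1.06 points (-1.91 to -0.167), and of gated endothelium 22.7% and 26.0%, a difference of 3.34 points (-5.55 to 13.0). The interval of the share of all cells thus left out 0 at full depth and at 500 UMIs and held it at 1000 UMIs, and fewer of these cells and fewer cells captured cannot be told apart.

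The same rule applied to the tumor libraries gave the endothelium of another site in the same study. It took 61 control cells (2.21%, median 2795 UMIs, 230815 in all) and 39 D-CAN cells (2.62%, median 3579, 216815 in all). Members of SAT were past 2-fold higher than these in both treatments for 379 of 4891 genes (7.75%) and lower for 250 (5.11%). List medians against the tumor were taken as against other endothelium, over the smaller of each gene's ratios in both treatments. Among lipid genes 8 of 12 were higher in SAT and none lower, with a median log2 ratio of 1.48. Among capillary genes 9 of 14 were higher and none lower (1.45), and among caveolae and transport genes 7 of 12 were higher and 1 lower (1.17).

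In tumor endothelium that passed the rule, Fabp4 had 11377 CPM in control and 13892 in D-CAN tumors, against 41074 and 42177 in SAT members. Cd36 stood at 451 and 1070 CPM, Lpl at 47.7 and 212, and Rbp7 at 420 and 558. Car4 had 39.0 and 46.1 CPM, Btnl9 69.3 and 83.0, Timp4 21.7 and 9.22, and Kdr 355 and 443. For each of these genes the SAT members of both treatments were above the tumor cells of both treatments. Fabp5 went the other way, with 4116 and 2786 CPM in tumor cells against 3100 and 2068 in SAT members of the same treatments.

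Genes of tip cells and growing vessels were higher in the tumor cells. Of 11 that passed 8 were past 2-fold lower in SAT members (Apln, Esm1, Angpt2, Nid2, Igfbp3, Col4a1, Col4a2 and Lama4), with a median log2 ratio of -1.51. Igfbp3, a carrier of insulin-like growth factors, had 21.4 and 58.0 CPM in SAT members against 5294 and 2251 in tumor cells. Col4a1 had 831 CPM in both SAT libraries against 2439 and 2361. Apln, the ligand of the apelin receptor and a tip cell gene, had 16.1 and 32.7 CPM against 208 and 175, and Esm1, a proteoglycan of tip cells, gave 11 UMIs in each SAT library against 234 and 60.0 CPM in tumor cells, where the SAT value is 19.7 CPM in control. Immediate early and heat shock genes went the other way, with 6 of 17 higher in SAT members and a median log2 ratio of 0.68. The mural list summed to 113 CPM in control and 946 in D-CAN tumor cells that passed the rule, against 188 and 203 in SAT members. The epithelial and tumor list summed to 446 and 710 CPM in the tumor cells, the fibroblast list to 169 and 816 and the myeloid list to 264 and 226, against at most 1 UMI, 155 and 105 CPM, and 46.5 and 29.0 CPM in SAT members. The part of RNA of these other cells was not tested. The tissues were captured as separate libraries, so tissue and library cannot be told apart.

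**Figure D5:**
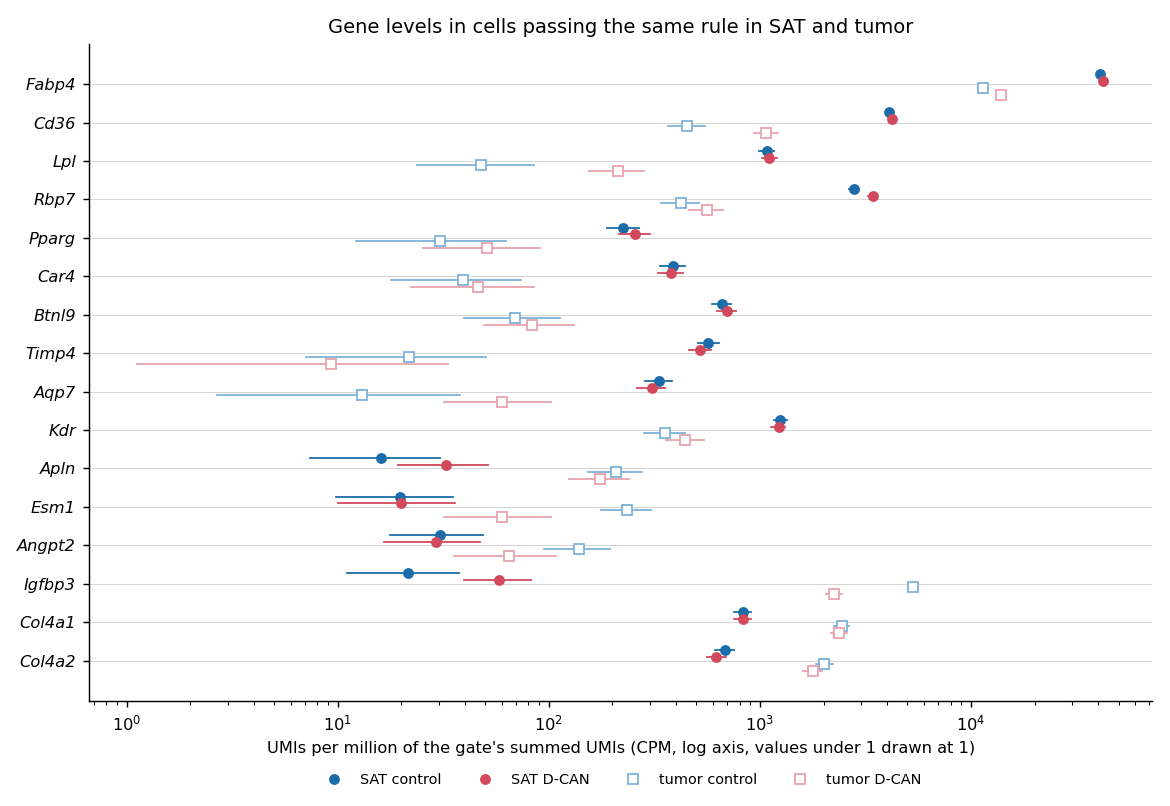
Levels in CPM (log scale) of lipid, capillary and tip genes in SAT members and in tumor cells that passed the same rule, control and D-CAN shown apart. Bars are exact Poisson intervals for counting error. Fabp4 and Car4 stand higher in SAT and Igfbp3 and Apln in the tumor, in both treatments.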

How the data were processed

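Cells were pooled as 1 library for each combination of tissue and treatment. The authors deposited filtered matrices of whole-number UMI counts per gene and cell; Cell Ranger 3.1.0 and STAR 2.6 are named in the submitters' processing notes, and the build is mm10. The header of the D-CAN SAT matrix names Cell Ranger 3.0.2. The lowest total in a cell was 500 UMIs. Totals were 6667064 UMIs in 2851 control SAT cells and 7444729 in 1922 D-CAN SAT cells; 2841 and 1897 had 200 or more genes. Rows sharing a symbol were summed. UMIs were summed per gate and library (python 3.11.15, numpy 2.4.6, scipy 1.17.1), given as CPM and compared as log2 ratios with 0.5 UMI added, a call being a ratio past 2-fold. Exact intervals are 95%, and a count of 0 allows 3 counts. Code was tested on simulated data.

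The members and the 22 gene lists were chosen with earlier results of these data known. Named genes were those of the rule and lists, the 15 highest and 5 lowest against other SAT cells (at least 100 UMIs), and the 12 highest and 12 lowest against other endothelium and between treatments (at least 50 UMIs), without mitochondrial, ribosomal and unnamed genes. Alternatives covered the rule, UMI minimum, scaling, thinning, denominator and mixed cells. No doublet caller was run.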

Additional observations from a re-analysis of the deposited data

Results flagged for a closer look

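Among all cells, the share that passed the rule was lower with D-CAN in SAT and higher in the tumor, where the interval holds 0. The difference, D-CAN minus control, was -1.54 percentage points (-2.85 to -0.180) in SAT and 0.413 points (-0.560 to 1.49) in the tumor. In SAT at full depth the direction turned among cells with immune genes at 0 (6.70 points) and among gated endothelium (18.9 points). At 1000 UMIs a cell these differences were -1.40 points (-4.51 to 1.79) and 5.92 points (-4.66 to 16.5). The interval for all cells held 0 at that depth too (-2.42 to 0.336). The difference between the tissues was not tested, since each group is 1 library.

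Hbb-bs went in opposite directions in the 2 endothelial gates, with a log2 ratio of D-CAN over control of 1.70 in members and -5.26 in other endothelium. In D-CAN members 1295 of 1374 Hbb-bs UMIs were in 1 cell. With the member richest in hemoglobin UMIs left out of each library, the members' ratio was -1.92. The difference between the gates was not tested.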

How the results depend on the processing

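No paired analysis between treatments was possible because each group is 1 library. Members and other endothelium were compared within each SAT library, without a test. The fall in the share of SAT cells that passed the rule (-1.54 points) was -3.85 points with 1 or more Gpihbp1 UMIs. At full depth it turned to 6.70 points among cells with immune genes at 0 and to 18.9 points among gated endothelial cells. With these cells thinned to 1000 UMIs the differences were -1.40 and 5.92 points. Thinning all cells gave -1.05 points (-2.42 to 0.336) at 1000 UMIs and -1.06 points (-1.91 to -0.167) at 500 UMIs. Against other endothelium, in place of 189 higher and 130 lower genes, there were 433 and 269 with no gene required to be 0, 299 and 72 with scaling by the median gene ratio, 111 and 50 at a minimum of 50 UMIs and 19 and 3 with each cell thinned to 500 UMIs, and 227 were lower at a minimum of 10 UMIs. The thinned libraries hold fewer UMIs, so fewer genes reached the minimum. The set of genes compared also changes with the UMI minimum and the rule. These counts, and those below between treatments and against the tumor, are therefore not rates of calling. All 24 genes named there kept their direction under each of the 12 alternatives, and 17 stayed past 2-fold after thinning. Between treatments, in place of 169 and 115, there were 408 higher and 345 lower at 10 UMIs, 41 and 12 at 50 UMIs and 36 and 50 after thinning to 500 UMIs (1 and 4 of them among the 169 and 115), and 174 were lower with no gene required to be 0. Of the 24 genes named between treatments, 22 of them past 2-fold, 11 were past 2-fold with no gene required to be 0 (1 reversed), 12 after thinning to 500 UMIs (6 reversed), 17 with 1 or more Gpihbp1 UMIs and 18 without mixed cells. Thinning turned the log2 ratios of Slco2a1 (-0.23), Acer2 (-0.59), Col15a1 (-2.18), Btbd1 (0.99), Fam181b (0.34) and Cdk9 (0.46). Igkc was at 0.16 with no gene required to be 0, and Hbb-bs at -1.92 without the member richest in hemoglobin UMIs of each library. Against the tumor, thinning to 1000 UMIs left 68 higher and 37 lower genes. The causes of these moves were otherwise not tested. Leaving out mixed cells or the hemoglobin cell and thinning with other denominators were chosen after seeing the data. Counts limit the treatment comparison, where a minimum of 50 UMIs left 41 of 169 and 12 of 115 calls.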
